A study of Mus musculus with 4 samples.

Results

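Neural progenitor and neuronal differentiation genes were examined in a pair of mouse neural stem cell sublines that differ in whether they form tumours. The group holds 40 genes of 18193 with a probe set, and all 40 had at least 1 probe set. The members were chosen by name from what they are known to do, with earlier results of these data known. RNA came from neuroepithelial cells of the telencephalon of C57BL/6 embryos at day 14.5, with the genotype p53-/-. The cells were grown as floating spheres in serum-free medium with insulin, bFGF, PDGF and forskolin, carried pCMS-EGFP-HRasL61 and pBabe-neo, and were selected in neomycin and sorted for GFP. Both groups share all of this. The labels call one group a tumorigenic subline of glioma-initiating cell-like cells (GIC, 2 arrays) and the other a nontumorigenic subline (non-GIC, 2 arrays). Whether a subline is 1 clone, and whether its 2 arrays hold separate cultures, is not said in the labels. Any other difference between the sublines goes along with tumorigenicity.

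Neural stem cells divide and give rise to intermediate progenitors, which pass through a cascade of proneural transcription factors before they leave the cell cycle and become neurons. Young neurons then build a stable microtubule skeleton, extend neurites and switch on adhesion, RNA-binding and synaptic proteins. Cells that start brain tumours are often described by surface and RNA-binding markers of the stem cell stage, and loss of neuronal differentiation is a common feature of glioma. The comparison asks how far the tumorigenic and nontumorigenic sublines differ along this path.

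Among the 40 members, 4 passed the test between sublines. The surface glycoprotein Cd24a and the transcription factor Insm1 rose in GIC, 2.32-fold and 6.47-fold. The microtubule-associated proteins Map2 and Map1b fell in GIC, with log2 fold changes of -2.29 and -1.58. Of the other members, 19 were tested and did not pass, and 17 were not tested because fewer than 2 arrays lay above the filter level, a log2 signal of 5.97. The test was limma's moderated test over all 13366 tested genes, with Benjamini-Hochberg adjustment at 0.05. It called 1.92% of all tested genes, 1.23% higher in GIC and 0.688% lower. The members' median log2 difference over the tested ones was -0.10, against -0.01 over all tested genes. Insm1 passed the filter only through its GIC arrays, and Gad1 and Stmn2 only through their non-GIC arrays, so the counts over tested members describe them and support nothing. In bulk RNA, fewer cells of a type and less RNA per cell cannot be told apart.

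The promoters of the pair of microtubule-associated proteins that fell together are shown to let their sequences be compared. RefSeq (GRCm38.p6) gives 1 start for each, and each window runs from 250 bases before to 50 after that start. The Map2 window lies at chr1:66175079-66175378 on the plus strand and that of Map1b at chr13:99516553-99516852 on the minus strand. Capitals mark the E-box CANNTG, the letters read by proneural basic helix-loop-helix factors such as Neurog2 and Neurod1, which read the same on both strands.
Map2: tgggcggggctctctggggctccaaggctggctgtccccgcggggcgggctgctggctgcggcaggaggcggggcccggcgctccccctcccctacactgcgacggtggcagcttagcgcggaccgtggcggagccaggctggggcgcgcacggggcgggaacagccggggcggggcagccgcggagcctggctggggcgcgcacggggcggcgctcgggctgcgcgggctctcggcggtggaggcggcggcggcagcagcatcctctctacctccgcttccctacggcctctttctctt
Map1b: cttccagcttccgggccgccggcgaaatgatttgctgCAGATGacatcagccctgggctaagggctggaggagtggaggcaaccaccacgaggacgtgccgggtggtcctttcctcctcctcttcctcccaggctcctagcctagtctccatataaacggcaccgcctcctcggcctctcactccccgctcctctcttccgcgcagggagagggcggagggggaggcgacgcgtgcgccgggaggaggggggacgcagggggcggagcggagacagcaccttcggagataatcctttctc

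The Map2 window held 0 E-boxes and the Map1b window held 1, CAGATG at position 38 of 300. An E-box lay in 72.3% of all 32851 promoter windows and in 36 of the 49 windows of the 31 members that the table names (73.5%). The narrower form CAGNTG, counted on both strands as a subset of CANNTG, lay in 51.4% of all windows and in 46.9% of the members' windows. The GC content was 77.7% for Map2 and 65.7% for Map1b, against a median of 52.7% over all windows. A match describes letters in these windows only. The promoters of Cd24a and Insm1 are not shown.

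Cd24a encodes a small glycoprotein anchored to the cell surface, found on transit-amplifying progenitors and young neurons and also on many tumour cells. In GIC its log2 signal was 12.97 and 12.92, and in non-GIC it was 11.81 and 11.64. Both GIC arrays lay above both non-GIC arrays, and the gap between sublines was larger than that within either. The difference was 1.22 (SE 0.14, limma adjusted p = 0.0356). All 3 Cd24a probe sets were higher in GIC, with differences from 1.05 to 1.27, and 2 of them passed in a fit over all 24100 probe sets with 1 gene that pass the filter, where 1.7% passed. The call did not hold when any 1 array was left out, while the log2 fold change stayed between 1.13 and 1.30.

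The other progenitor markers did not pass or were not tested. Pax6, a homeobox factor of radial glia, had 8.43 and 8.21 in GIC and 8.56 and 8.96 in non-GIC, a difference of -0.44 (adjusted p = 0.361) with groups that did not overlap. Of its 5 probe sets, 3 were lower and 2 higher in GIC, from -0.61 to 0.11. The Musashi RNA-binding proteins Msi1 and Msi2, which repress translation of differentiation genes, had differences of -0.04 and -0.24, and all 8 Msi2 probe sets were lower in GIC by small amounts, at most 0.30. Fut4, the fucosyltransferase that makes the stem cell antigen SSEA-1, had a difference of 0.02. Prom1, which encodes the CD133 antigen, and the orphan nuclear receptor Nr2e1 lay below the filter level on all 4 arrays, Prom1 at 4.34 and 4.76 in GIC and 4.67 and 4.56 in non-GIC. The 95% interval of the difference lay within 1 on the log2 scale, either way, for all 4 tested markers that did not pass, against 73.1% of all tested genes.

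Insm1 encodes a zinc-finger factor that is switched on in intermediate progenitors and newborn neurons and in neuroendocrine cells. Its log2 signal was 7.61 and 8.01 in GIC and 5.21 and 5.02 in non-GIC. The non-GIC arrays lay below the filter level, where a fold change can be understated. The log2 fold change was 2.69 (SE 0.17, limma adjusted p = 0.0122). The second probe set gave 7.32 and 8.45 in GIC and 4.58 and 4.61 in non-GIC, a difference of 3.29 (adjusted p = 0.0377 in the fit over probe sets). The call held without GIC replicate 1 (adjusted p = 0.0312) or GIC replicate 2 (0.0272) and did not hold without non-GIC replicate 1 (0.0720) or non-GIC replicate 2 (0.0652).

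No other transcription factor of the group passed. Neurog1 and Neurod2, basic helix-loop-helix factors of the neurogenic cascade, were tested and had differences of 0.20 and -0.12 (limma adjusted p = 0.490 and 0.708). The other 8 had fewer than 2 arrays above the filter level. These are Neurog2, which starts the cascade in cortical progenitors, Neurod1 and Neurod4, which follow it, Eomes and Tbr1, the T-box factors of intermediate progenitors and early cortical neurons, Nhlh1 and Nhlh2 of newborn neurons, and the zinc-finger factor Myt1. Eomes alone had 1 array above the level, with 5.60 and 5.96 in GIC and 6.50 and 5.92 in non-GIC. With signals this low, a change in these 8 factors may not be detectable on these arrays.

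**Figure D1:**
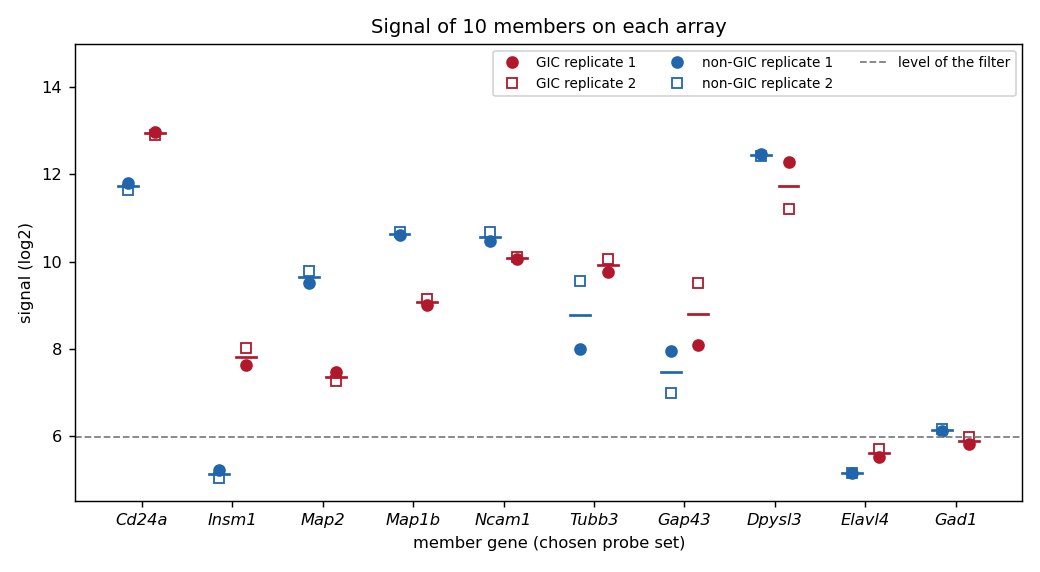
Log2 signal (y axis) of the probe set used for each of 10 members (x axis) on each array, with red for GIC, blue for non-GIC, circles for replicate 1, squares for replicate 2 and short lines for the means of 2 arrays. Cd24a and Insm1 lie higher and Map2 and Map1b lower on both GIC arrays, while Tubb3, Gap43 and Dpysl3 differ by more than 1 between arrays of the same subline.

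Map2 stabilises microtubules in dendrites and is a classical marker of maturing neurons. Its log2 signal was 7.46 and 7.25 in GIC and 9.50 and 9.79 in non-GIC. The higher GIC array lay more than 2 below the lower non-GIC array. The log2 fold change was -2.29 (SE 0.19, limma adjusted p = 0.0190). All 4 Map2 probe sets were lower in GIC, from -2.69 to -1.09, and the 3 that passed the filter passed the test over probe sets. The call for the gene did not hold when any 1 array was left out, with log2 fold changes from -2.43 to -2.14.

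Map1b acts earlier, in growing axons and migrating neurons. It had 8.99 and 9.14 in GIC and 10.60 and 10.68 in non-GIC, a difference of -1.58 (SE 0.16, limma adjusted p = 0.0319). For this probe set, the arrays of each subline lay close together and the groups were well apart. The other 2 probe sets were also lower, by -1.53 and -0.95, without passing (adjusted p = 0.148 and 0.138). The GIC arrays lay further apart in these 2 Map1b probe sets, at 7.03 and 8.08 and at 5.41 and 5.97. Averaged over its probe sets, the difference was -1.35 and the adjusted p 0.0740. Omitting GIC replicate 1 or 2 gave an adjusted p of 0.102 or 0.0587, and omitting non-GIC replicate 1 or 2 gave 0.179 or 0.156.

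**Figure D2:**
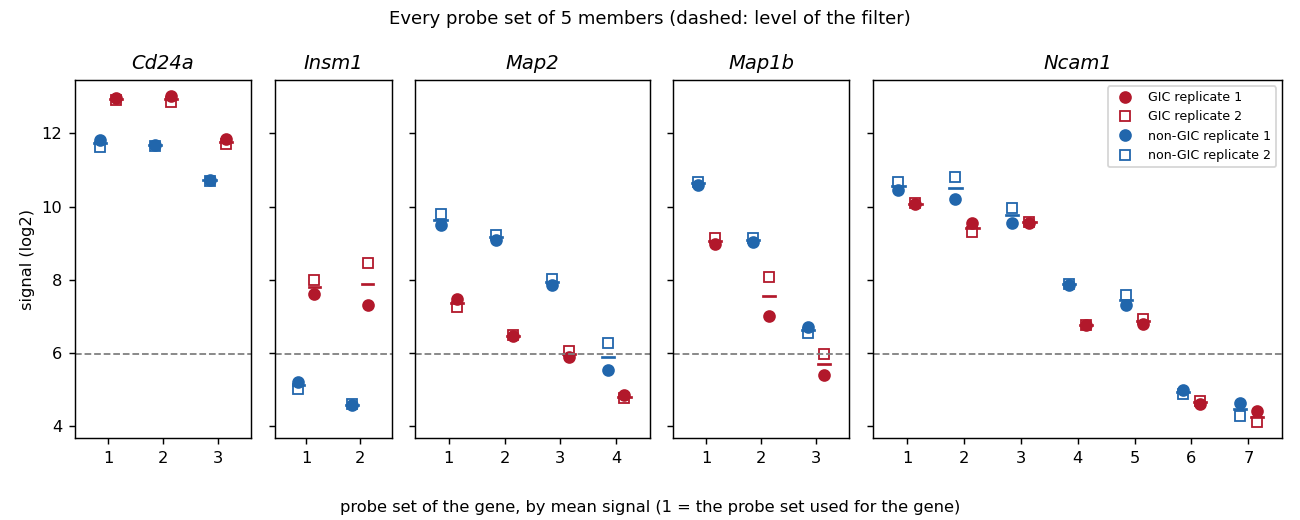
Log2 signal (y axis) of every probe set of Cd24a, Insm1, Map2, Map1b and Ncam1 (x axis, ordered by mean signal, the first being the one used for the gene), with colours and symbols for subline and replicate, short lines for means of 2 arrays and a dashed line at the filter level of 5.97. The 3 Cd24a and 2 Insm1 probe sets are higher in GIC, and the means of all 4 Map2, 3 Map1b and 7 Ncam1 probe sets are lower.

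The remaining microtubule members did not share this size of difference. Mapt, which encodes the axonal protein tau, had a difference of -0.10, the tubulin-binding stathmins Stmn2 and Stmn3 had -0.18 and -0.10, and Crmp1, a mediator of semaphorin signals, had -0.08, each with a 95% interval within 1 on the log2 scale. Of the 8 tested microtubule members, 7 (87.5%) had a negative difference, against 51.5% of all tested genes. Stmn2 passed the filter only through its non-GIC arrays, which fixed its sign in advance, so this share supports nothing. Dcx, the doublecortin of migrating neurons, lay below the filter level with all of its 4 probe sets, at 5.43 and 5.40 in GIC and 5.44 and 5.27 in non-GIC for the strongest. Dpysl5, a collapsin response mediator, was also not tested.

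Tubb3, the beta-tubulin used as a marker of young neurons, had 9.77 and 10.06 in GIC and 7.98 and 9.56 in non-GIC. The groups did not overlap, but the non-GIC arrays differed from each other by more than the sublines did. The difference was 1.15 (SE 0.54, limma adjusted p = 0.363) and ranged from 0.36 without non-GIC replicate 1 to 1.93 without non-GIC replicate 2. It had the opposite sign to that of Map2 and Map1b.

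Dpysl3, a collapsin response mediator of growing neurites, showed the reverse layout. It had 12.30 and 11.20 in GIC and 12.46 and 12.43 in non-GIC, so that GIC replicate 2 stood apart from the other 3 arrays. The difference was -0.70 (limma adjusted p = 0.423), -1.25 without GIC replicate 1 and -0.15 without GIC replicate 2. All 3 of its probe sets were lower in GIC, from -0.86 to -0.69.

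Gap43, a growth cone phosphoprotein of extending axons, had 8.08 and 9.50 in GIC and 7.94 and 6.97 in non-GIC. The groups did not overlap, yet GIC replicate 1 lay only slightly above non-GIC replicate 1. The difference of 1.33 (SE 0.58) did not pass (limma adjusted p = 0.330). Omitting GIC replicate 1 or 2 gave 2.04 or 0.62, and omitting non-GIC replicate 1 or 2 gave 1.81 or 0.84. Differences of at least 2-fold between arrays of a subline were found for 2 of 23 tested members in GIC (Gap43 and Dpysl3) and 1 in non-GIC (Tubb3), against 3.16% and 3.02% of all tested genes. The 8 fibroblast and mural markers also differed between the GIC arrays, with a mean log2 signal of 10.62 on replicate 1 and 9.55 on replicate 2, against 10.11 and 10.09 in non-GIC. Of the 6 tested ones, 3 differed at least 2-fold between the GIC arrays and 2 between the non-GIC arrays, Col1a2 at 11.46 and 9.28 and Dcn at 7.26 and 8.27, in opposite directions, so the near-equal non-GIC means do not show that these arrays agreed. Their part in these results was not tested.

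Ncam1, the neural cell adhesion molecule, is measured by 7 probe sets, which disagreed in size but not in sign. The probe set used for the gene had 10.06 and 10.10 in GIC and 10.47 and 10.67 in non-GIC, a difference of -0.49 (limma adjusted p = 0.246). Another had 6.78 and 6.76 in GIC and 7.86 and 7.89 in non-GIC, a difference of -1.10 that passed in the fit over probe sets (adjusted p = 0.0373). It represents the gene when probe sets that can bind several transcripts are left out, and Ncam1 is then called lower (adjusted p = 0.0355). The smallest difference among the 7 was -0.20. The other adhesion members were L1cam, which guides axon bundles (difference 0.15, adjusted p = 0.538), and the secreted migration signal Reln, which lay below the filter level.

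None of the neuronal RNA-binding proteins and synaptic members passed. Elavl3 and Rbfox3, the latter encoding the NeuN antigen, had differences of -0.05 and 0.02, and the 95% interval for Rbfox3 ran from -0.40 to 0.43. Elavl4 lay below the filter level on all arrays, with 5.51 and 5.68 in GIC and 5.14 and 5.14 in non-GIC. All 3 of its probe sets were higher in GIC, by 0.22 to 0.61. The gene was not tested with the level filter and did not pass without it (limma adjusted p = 0.164). Syp, a protein of synaptic vesicles, had a difference of -0.24 (limma adjusted p = 0.521). Gad1, an enzyme that makes the transmitter GABA, had 5.80 and 5.96 in GIC and 6.11 and 6.14 in non-GIC, a difference of -0.25 (adjusted p = 0.322). Elavl2, Snap25 of the vesicle fusion machinery and Gad2 were not tested.

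**Figure D3:**
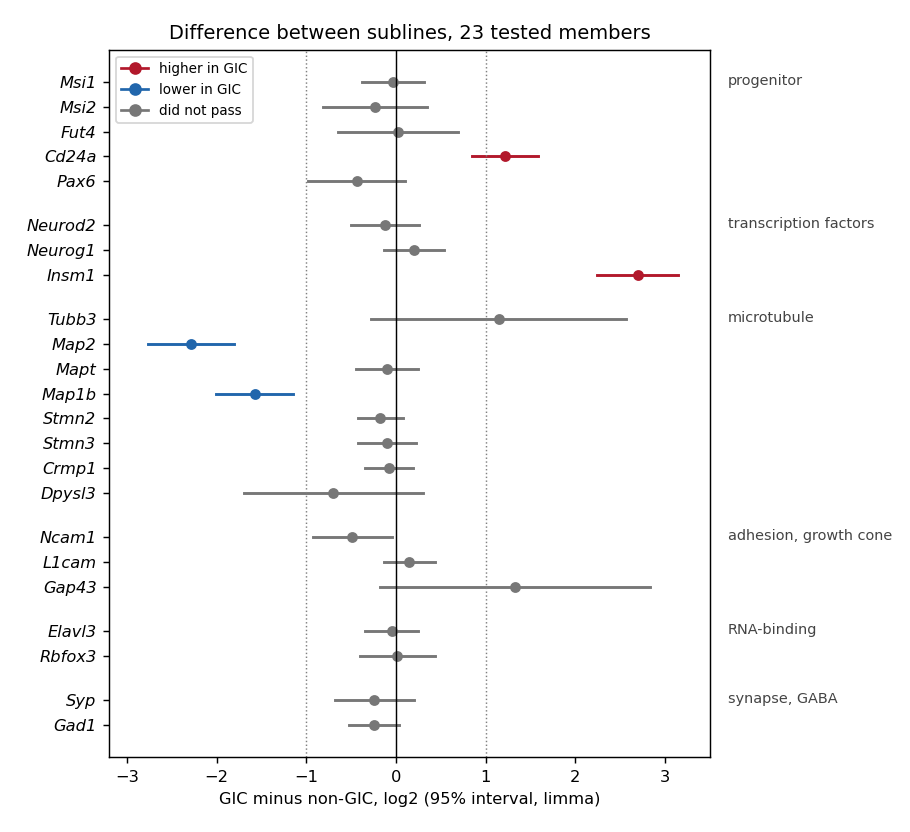
Difference between sublines (x axis, GIC minus non-GIC, log2, with limma's 95% interval from 2 arrays per group) for the 23 tested members (y axis, by role), with red for higher, blue for lower and grey for not passed. The intervals of the 4 called members lie outside 0, as does that of Ncam1, which did not pass. The intervals are not adjusted for the number of genes tested. Those of 16 of the 19 members that did not pass lie within 1 either way, the exceptions being Tubb3, Gap43 and Dpysl3.

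Over all tested members, the groups did not overlap for 16 of 23 (69.6%), 6 higher and 10 lower in GIC, against 50.4% of all tested genes. At least 2-fold differences without overlap were found for 4 members higher in GIC and 2 lower, against 4.18% and 2.2% of all tested genes. Insm1, Gad1 and Stmn2 passed the filter through the arrays of 1 subline only, so their lack of overlap was fixed in advance. The counts therefore describe the tested members and support nothing. Of the 17 members that were not tested, 16 lay below the filter level on every array, and their differences ran from -0.32 for Myt1 to 0.45 for Elavl4. Detection calls were not used, so none of them is called absent.

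**Figure D4:**
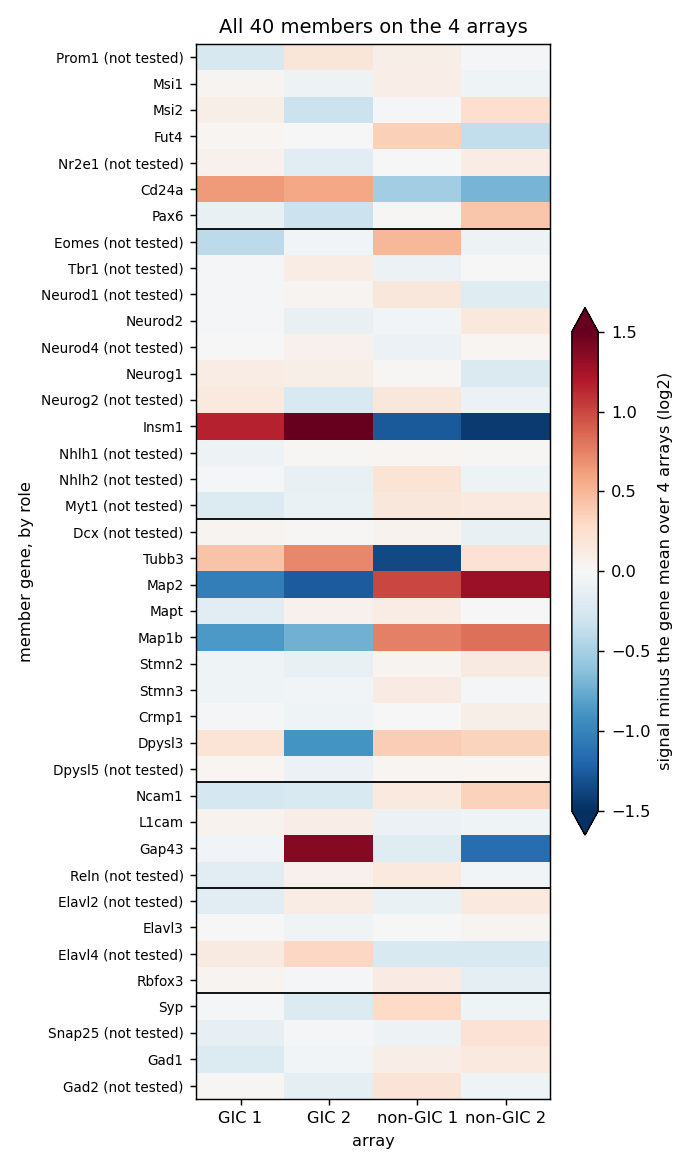
Log2 signal minus each gene's mean over the 4 arrays (colour, from blue at -1.5 to red at 1.5) for all 40 members (y axis, by role) on the GIC and non-GIC arrays (x axis). Cd24a, Insm1, Map2 and Map1b separate the sublines, Tubb3, Gap43 and Dpysl3 also vary within a subline, and most other rows are near 0.

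Other genes of the same path changed in few members. Of 22 tested stem and progenitor genes outside the group, the intermediate filament Nes (11.45 and 10.81 in non-GIC, 9.17 and 8.97 in GIC) and the radial glial Fabp7 fell, with differences of -2.07 and -1.51 (limma adjusted p = 0.0459 and 0.0258), and 20 did not pass, where 0.688% of all tested genes were called lower. Neither call held with any 1 array left out, with differences from -2.39 to -1.75 for Nes and from -1.66 to -1.35 for Fabp7. Nes passed in 7 of 14 alternatives. It narrowly missed without a level filter (limma adjusted p = 0.0503) and with eBayes without a trend (0.05003). Sox2 had a difference of -0.90 (adjusted p = 0.144). Of 20 tested neurogenic factors, Sox11 fell (-5.43, adjusted p = 0.00433) and 19 did not pass. Sox11 and Fabp7 passed the filter only through their non-GIC arrays. Their GIC arrays lay below its level, Sox11 at 5.19 and 5.35 and Fabp7 at 5.23 on both, so the size of these differences is uncertain and the counts over these lists support nothing. Of 29 tested neuronal structure and synapse genes, limma called 0. An unadjusted p under 0.05 was found for 8 of the 29, against 17.9% of all tested genes. The smallest p-values there belonged to 2 microtubule genes, Map6 (difference -1.26, adjusted p = 0.0507) and the tubulin Tubb2b (-1.35, adjusted p = 0.0744). Map6 passed in 5 of 14 alternatives. With probe sets that can bind several transcripts left out its difference was -0.56 (adjusted p = 0.151).

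REST is a zinc-finger repressor that keeps neuronal genes silent in non-neuronal cells and progenitors. Rest had 10.71 and 10.43 in GIC and 10.40 and 10.58 in non-GIC, with overlapping groups and a difference of 0.08 (95% interval from -0.41 to 0.57). None of the 15 tested genes of REST and its partners was called by limma, which called 1.92% of all tested genes. Unadjusted, 2 of the 15 had a p under 0.05, against 17.9% of all tested genes, Ctdsp2 (difference 0.66, adjusted p = 0.227) and Ctdsp1 (-0.48, adjusted p = 0.272).

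The labelled cell type was checked against 9 neural stem cell markers, of which 8 were tested. Sox1 lay below the filter level on all arrays. Of the 8, limma called 0 higher and 2 lower in GIC (Nes and Fabp7), against 1.23% and 0.688% of all tested genes. Fabp7 was tested only through its non-GIC arrays. The groups did not overlap for 5 of the 8 (62.5%), 4 lower and 1 higher (Sox9, 1.47), against 50.4% of all tested genes. Of 37 markers of astrocytes, oligodendrocyte lineage, leukocytes, endothelium, fibroblasts and mural cells, 23 were tested. Of these 1 was called, against 1.92% of all tested genes. This was the smooth muscle actin Acta2, which fell by 1.71 on the log2 scale, with 13.30 and 12.79 in GIC and 14.75 and 14.76 in non-GIC. The 6 tested fibroblast and mural markers lay above the filter level on all 4 arrays. Beside Acta2, the groups did not overlap for Col1a1 (-2.06) and, in the other direction, Col1a2 (1.26), and neither passed. Col1a1 had 13.59 and 10.70 in GIC and 13.84 and 14.57 in non-GIC. The groups did not overlap for 12 of the 23 (52.2%), against 50.4% of all tested genes. The oligodendrocyte markers Olig1, Olig2 and Mog and the leukocyte markers Ptprc, Itgam, Aif1 and Tyrobp were below the filter level on every array. Above it on all 4 arrays were the oligodendrocyte lineage markers Pdgfra, Cspg4, Sox10, Mbp and Cnp and the leukocyte markers Csf1r and Cd68. Pdgfra had 12.51 and 12.09 in GIC and 9.68 and 10.41 in non-GIC, a difference of 2.26 (limma adjusted p = 0.0504), and its groups did not overlap. The groups also did not overlap for Cd68 (0.53), Mbp (0.13) and Csf1r (-0.30), and none of these 3 passed. Of 7 tested astrocyte markers, 3 were lower in GIC without overlap, the largest difference being that of Glul (-0.69). Of 3 tested endothelial markers, 1 was higher without overlap (Flt1, 0.92) and 1 lower (Cldn5, -0.16). No astrocyte or endothelial marker passed. The mean log2 signal of the astrocyte markers was 7.49 and 7.46 in GIC and 7.69 and 7.64 in non-GIC, and that of the leukocyte markers was 5.63 and 5.63 in GIC and 5.64 and 5.48 in non-GIC. The neuroendocrine granule proteins Chga and Chgb, looked at beside Insm1, were below the filter level on all 4 arrays. Of the related granule proteins, Scg3 had 1 array above it. Scg2 lay above it on all 4 arrays, at 10.52 and 9.64 in GIC and 9.42 and 12.73 in non-GIC.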

How the data were processed

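Transcripts of 2 GIC and 2 non-GIC samples were measured, 1 oligonucleotide array per sample, after biotin labelling of 5 µg of RNA per the labels. The deposited values are on a log2 scale, judged from their range, and run from 2.75 to 15.12 over 45101 probe sets with array medians of 6.58 to 6.63. How the authors corrected, summarised and normalised the signals is not given in the sources used here. No pair of arrays held identical values. The number of arrays limits the precision.

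Probe sets were named through the platform annotation, with symbols updated by Entrez identifier to GRCm38.p6: 34945 had 1 gene, 932 had several and were left out, and for 34741 the symbol came from the identifier. Each gene took its probe set of highest mean signal and was tested if its signal exceeded the 40th percentile of all values (5.97) on 2 or more arrays. Differences (GIC minus non-GIC) were tested two-sided with limma 3.58.1 in R 4.3.3 (lmFit, eBayes with trend, no covariate beside group; 2 residual and 2.72 prior degrees of freedom), with Benjamini-Hochberg adjustment over 13366 genes. The smallest p that an exact permutation of these arrays allows for 1 gene is 0.333. The spread behind each p-value is that between these arrays and may be technical. The procedure was also run on simulated data, with planted differences larger than those of the called members. The outcome is not given here and supports none of the calls.

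The members and the other gene lists were chosen with earlier results of these data known. Values on every array are given for members that passed, that differed at least 2-fold without overlap, that differed at least 2-fold within a subline, or that had the largest difference of their role. Ncam1, Pax6, Prom1, Eomes, Dcx, Lhx2, Ebf2, Chga, Chgb, Scg2, Scg3, Pdgfra, Cd68, Mbp, Csf1r, Glul, Flt1, Cldn5, Col1a2, Dcn and Sox9 and the other members named by value are outside that rule and were chosen after their values were seen. Of the other lists, genes that passed are named, else the 2 with the smallest p, with Sox11, Nes, Sox2 and Rest. Col1a1 was also named after its values were seen. The alternatives tried were a block for the replicate number, 2 scalings, 2 filters, 2 choices of probe set, 2 forms of eBayes and leaving out each array; a lone remaining array takes its spread from the other subline. A crossed block and the fit over all probe sets were added after seeing the data. Plots used matplotlib 3.10.9 (Python 3.11.15).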

Additional observations from a re-analysis of the deposited data

How the results depend on the processing

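Both members called higher and both called lower kept their direction in every alternative, and both scalings, both filters and both forms of eBayes gave 2 higher and 2 lower. Averaging probe sets left 1 member lower (Map2), and leaving out those that can bind several transcripts gave 3 lower, with Ncam1 added. Left-out arrays gave 0 to 1 members higher and 0 lower. The replicate number as a block gave 0 higher and 0 lower (adjusted p = 0.0677 for Insm1, 0.106 for Map2, 0.145 for Map1b and 0.171 for Cd24a), and 29 genes in all against 257. The labels do not say that a number marks a shared source, and deviations of same-numbered arrays correlated at -0.32 over tested genes. A crossed block called 685 genes, with 3 members higher and 2 lower. Left-out arrays gave 12 to 188 genes. Of the 71 tested other listed neural genes, 19 had an unadjusted p under 0.05 in either direction, against 17.9% of all tested genes. Of these 71 genes, limma called 0 higher and 3 lower, against 1.23% and 0.688% of all tested genes. Higher calls numbered 2 with the crossed block, 1 without a filter (Ebf2, 0.93) and 0 to 1 with an array left out (Lhx2 without non-GIC replicate 2). Lower calls numbered 4 under each scaling, with Map6 added, 2 without a filter, with Nes lost, 1 with the block, 5 with the crossed block and 1 with any array left out (Sox11). The count of lower calls stayed at 3 with the filter at the 60th percentile, where Map6 was called and Fabp7 was not tested. It also stayed at 3 with eBayes without a trend, where Map6 was called and Nes was not. The Rest difference turned sign when GIC replicate 1 (-0.057) or non-GIC replicate 1 (-0.0087) was omitted, and reached 0.22 when GIC replicate 2 was. Where calls were lost with an array left out, fewer samples were fitted; otherwise the cause was not tested.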

Other observations

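Of the 71 tested neural genes outside the group, 9 (12.7%) differed at least 2-fold between the non-GIC arrays. The share was 4.35% (1 of 23) for tested members and 3.02% for all tested genes. Between the GIC arrays the shares went the other way, 1 of the 71 (1.41%) against 2 of the 23 members (8.70%), with 3.16% of all tested genes. Of the 9 genes, 6 were among the 22 tested stem and progenitor genes. Ccnd2, a cyclin of cycling progenitors, had 8.23 and 12.06 in non-GIC and 6.51 and 7.42 in GIC. Lhx2, a homeobox factor of cortical progenitors, had 4.30 and 7.77 in non-GIC and 8.82 and 9.01 in GIC. The secretory granule protein Scg2 had 9.42 and 12.73 in non-GIC and 10.52 and 9.64 in GIC. The secreted growth factor Ptn had 10.04 and 12.12 in non-GIC and 12.26 and 11.16 in GIC. All 9 genes (Sox9, Slc1a3, Lhx2, Id3, Ccnd2, Ptn, Sox12, Snap91 and Scg2) were higher on non-GIC replicate 2, as was the member Tubb3, and limma called none between sublines with all arrays and no block. Sox9 was called higher in GIC with the crossed block (adjusted p = 0.0228), and Lhx2 without non-GIC replicate 2. These genes were picked out after their values were seen, and this pattern carries no test.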
